A study of Rattus norvegicus with 40 samples.

Results

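The chaperones of the endoplasmic reticulum described here are 10 genes: Hspa5, Hsp90b1, Hyou1, Pdia3, Pdia4, Pdia6, Calr, Canx, Dnajb11 and Sdf2l1. They were chosen by name, as array rows that carry exactly 1 gene symbol, and the row with the highest mean was to stand for a gene. Each of the 10 had 1 row, and all 10 were among the 10203 genes tested. Their mean log2 intensities over all arrays ran from 10.45 to 13.57, above the filter on dim rows at 6.7. Livers of Sprague Dawley rats were profiled on 40 arrays (Affymetrix Rat Gene 1.0 ST), which fall into 12 groups: 3 models, each with 2 treatments and 2 RNA fractions.

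Fetal rats received 50 µg of rapamycin or DMSO at gestational day 19, and their livers were taken 24 h later. In the hepatectomy model, adult rats received rapamycin (250 µg per 100 g of body weight) or DMSO 1 h before most of the liver was removed, and the remaining liver was taken 24 h after surgery. In the refed model, adult rats were fasted for 48 h, received the same injections, and ate freely for 3 h from 1 h after the injection. Each fetal group held 4 livers and each adult group held 3. Polysome RNA, the RNA bound to several ribosomes, and total RNA came from the same livers. Every animal had been injected with rapamycin, an inhibitor of the kinase mTOR, or with its solvent DMSO, so no group was uninjected. The labels give a fast only for the refed model and a partial hepatectomy only for the hepatectomy model. Neither can be told apart from its model. The polysome preparations were pooled, and the sources used here do not give what was pooled, so counting 1 liver per replicate number is an assumption. The 3 polysome arrays of DMSO-injected hepatectomy livers carry the time point of the refed model in 1 label, and their titles were followed. Where nothing else is said, values are log2 intensities, differences are on the log2 scale with the standard error (SE) of the fit, and group means carry the standard deviation (SD). A difference was called when its p-value from limma, adjusted by the Benjamini-Hochberg method over all 10860 rows tested, was below 0.05.

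Secreted and membrane proteins fold in the endoplasmic reticulum, and the liver makes most plasma proteins, so hepatocytes hold much of this machinery. Hspa5 (BiP) is its Hsp70 chaperone and also holds the stress sensors of the unfolded protein response inactive until unfolded proteins draw it away. Hsp90b1 (Grp94) is its Hsp90 chaperone. Hyou1 (Grp170) is a large Hsp70-related protein that acts as a nucleotide exchange factor for BiP. Calr and Canx bind the sugar chains of new glycoproteins, and Pdia3 forms disulfide bonds in the proteins they hold. Pdia4 and Pdia6 are further protein disulfide isomerases. Dnajb11 (ERdj3) is a J-domain co-chaperone of BiP, and Sdf2l1 forms a complex with Dnajb11. In mammalian cells the transcription factors ATF6 and XBP1 raise many of these genes under folding stress, and ATF6 acts together with NF-Y at the endoplasmic reticulum stress element.

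Promoter sequences are shown because several members hold a form of this element. RefSeq promoters of the rat assembly GRCr8, from 250 bases before to 50 bases after each gene's start, were matched for 8 of the 10 members. Pdia3 and Pdia6 were not matched. The element was searched on both strands as CCAAT followed by CCACG with 9 bases of any kind between them. Its second form, ERSE-II, was searched as ATTGG followed by CCACG with 1 base between them. The first was in 4 of the 8 promoters, of which those of Hspa5, Hsp90b1 (2 copies) and Calr are shown, and in 22 of all 33469 promoters, 0.0657%. The second was in Hyou1, with 2 copies, and in Dnajb11, and in 17 of all promoters, 0.0508%. Neither string of letters was in the windows of Pdia4 and Sdf2l1. The lines below print the matches shown with 10 bases on either side, 5′ to 3′ on the gene's own strand, with the letters fixed in the search in capitals. A match that reads CGTGG first lies on the opposite strand.
Hspa5, chr3:38452963-38453001, plus strand: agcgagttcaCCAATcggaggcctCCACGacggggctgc
Hsp90b1, chr7:23012441-23012479, minus strand: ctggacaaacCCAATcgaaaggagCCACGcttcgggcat
Hsp90b1, chr7:23012337-23012375, minus strand: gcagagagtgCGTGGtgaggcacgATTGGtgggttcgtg
Calr, chr19:40213125-40213163, plus strand: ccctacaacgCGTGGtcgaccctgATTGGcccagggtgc
Hyou1, chr8:53602684-53602714, plus strand: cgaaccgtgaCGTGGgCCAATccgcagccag
Hyou1, chr8:53602784-53602814, plus strand: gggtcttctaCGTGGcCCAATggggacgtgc
Dnajb11, chr11:91672790-91672820, minus strand: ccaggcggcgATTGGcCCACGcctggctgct

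The whole Hspa5 window is printed to show the element in its place near the gene's start, 43 bases upstream; it is chr3:38452766-38453065 on the plus strand.
Hspa5 promoter: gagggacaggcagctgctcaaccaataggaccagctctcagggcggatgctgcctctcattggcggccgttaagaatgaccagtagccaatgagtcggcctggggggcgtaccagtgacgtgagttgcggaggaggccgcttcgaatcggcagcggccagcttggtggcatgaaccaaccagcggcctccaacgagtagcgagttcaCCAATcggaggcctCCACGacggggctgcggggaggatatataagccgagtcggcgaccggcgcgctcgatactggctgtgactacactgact
The shorter parts of the element are common: CCAAT alone was in 37.5% and CCACG alone in 31.6% of all promoters, on either strand and counting matches inside the longer motifs. Among the other endoplasmic reticulum genes listed here, the first form was also in Xbp1, Creld2, Ero1b, Dnajc3 and Derl3. A match is a description of the letters and not a measured binding site.

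Over the 12 groups every member lay below its own average in fetal polysome RNA and above it in hepatectomy total RNA. The full order of the groups differed by member, with Sdf2l1 the least like the others. Each member's group means were centred on their own average and then averaged over the 10 members. The result was highest in total RNA of hepatectomy livers (0.39 with rapamycin, 0.52 with DMSO), followed by total RNA of refed livers (0.22 with rapamycin, 0.38 with DMSO). It was lowest in polysome RNA of fetal livers, at -0.67 with rapamycin and -0.59 with DMSO. Total RNA of fetal livers lay at -0.33 with rapamycin and -0.17 with DMSO, below the polysome RNA of both adult models, which ran from -0.01 to 0.13. Across the 12 group means, which share livers between fractions, the correlation of a member with the mean of the other members was 0.98 for Pdia4, 0.71 to 0.89 for 8 members, and 0.43 for Sdf2l1.

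**Figure D1:**
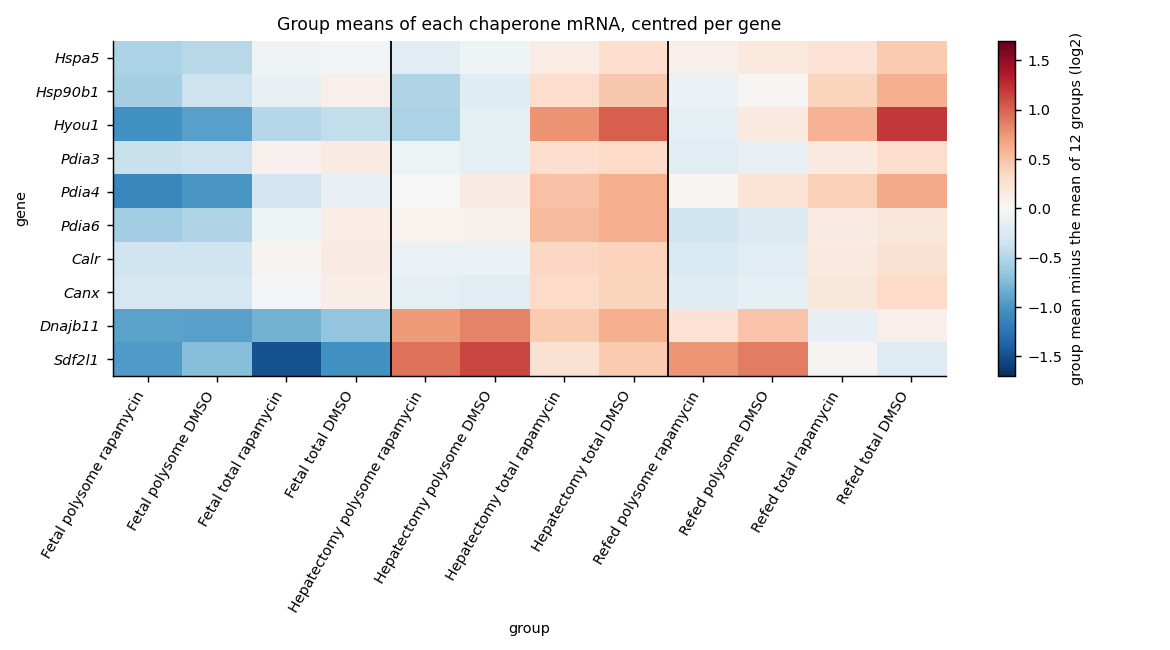
Heat map of the group means of each chaperone (rows) in the 12 groups (columns), as log2 intensity minus the gene's own average over the groups, with red above and blue below that average. Fetal polysome RNA is blue for all 10 genes and total RNA of hepatectomy livers is red for all 10, while Dnajb11 and Sdf2l1 are reddest in hepatectomy polysome RNA.

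The highest group differed by member. It was total RNA of refed DMSO livers for Hspa5, Hsp90b1, Hyou1 and Pdia4, total RNA of hepatectomy DMSO livers for Pdia3, Pdia6, Calr and Canx, and polysome RNA of hepatectomy DMSO livers for Dnajb11 and Sdf2l1. The lowest was polysome RNA of fetal rapamycin livers for 7 members, polysome RNA of fetal DMSO livers for Canx and Dnajb11, and total RNA of fetal rapamycin livers for Sdf2l1. The distance between the lowest and the highest group mean was 2.62 for Sdf2l1, 2.23 for Hyou1, 1.77 for Dnajb11 and 1.75 for Pdia4. It was 0.68 to 1.21 for the other members. Most neighbours in these orders lay within the spread of their replicates: of the 11 steps between neighbouring groups, 0 (Sdf2l1) to 4 (Hsp90b1) were larger than the larger of the 2 SDs.

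**Figure D2:**
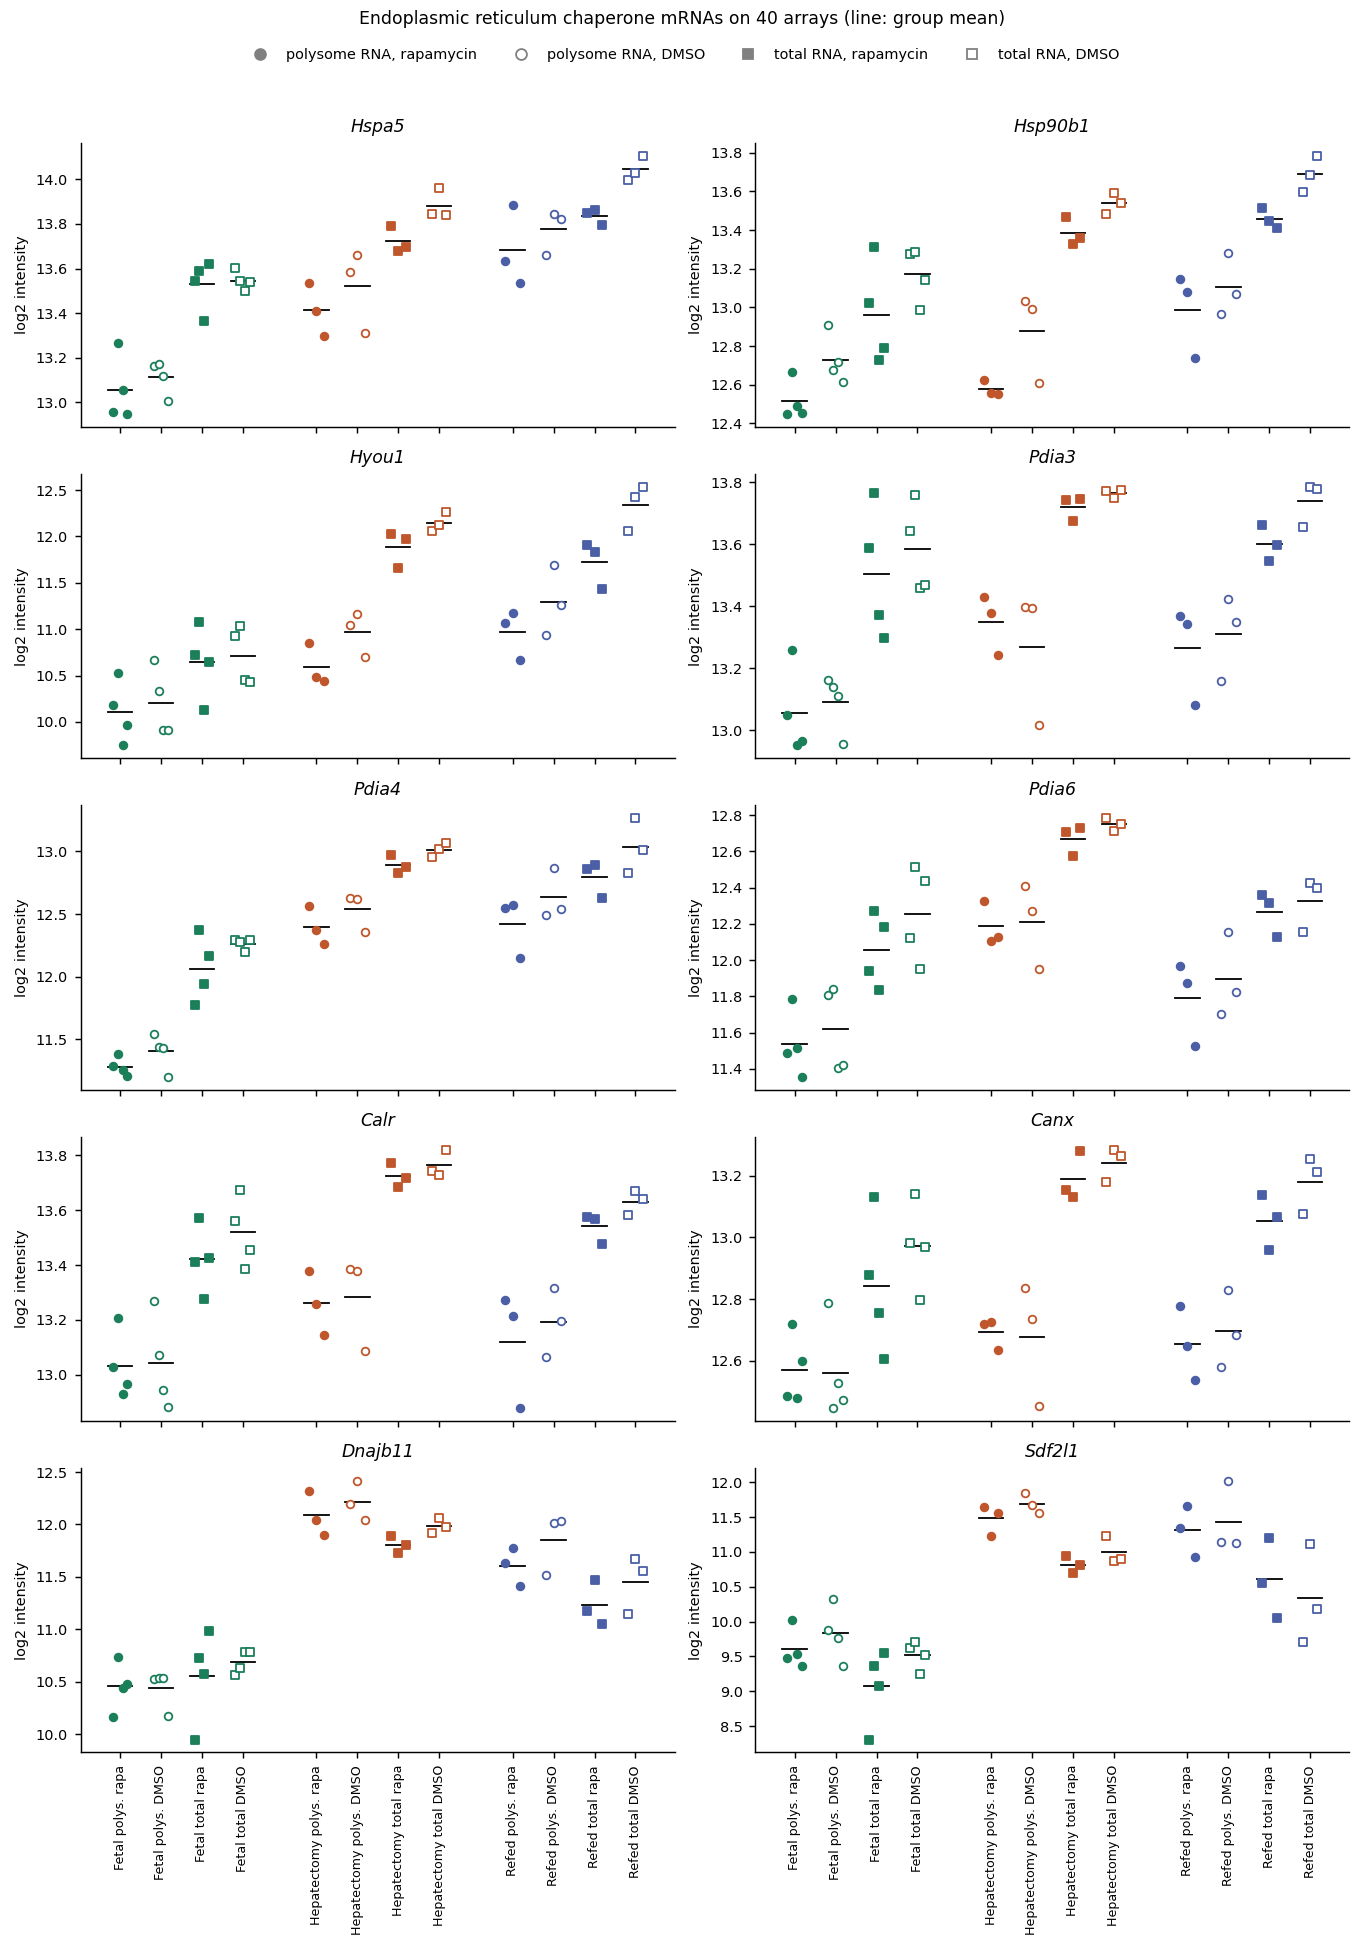
Log2 intensity of each of the 10 chaperones on every one of the 40 arrays, with 1 panel per gene, groups on the horizontal axis, 1 point per array and a line at the group mean. All fetal arrays of Dnajb11 lie below all adult ones, and the polysome arrays of the first 8 genes lie mostly below the total RNA arrays of the same model.

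Polysome RNA was compared with total RNA of the same livers to ask how strongly each transcript was represented among the ribosome-bound messages. In DMSO-injected livers, 8 of the 10 chaperones had less signal in polysome RNA than in total RNA in all 3 models, while Sdf2l1 had more in polysome RNA, and Dnajb11 had more in the adult models. Called lower in polysome RNA were 7 members in fetal, 8 in hepatectomy and 6 in refed livers. Called higher was 1 member, Sdf2l1, in hepatectomy livers. Of all rows tested, 14.5% were called in fetal livers, 6.38% of them as lower. In hepatectomy livers 43.8% were called, 15% as lower and 28.8% as higher, and in refed livers 24.7% were called, 5.14% as lower. Every DMSO polysome array lay below every total RNA array for 8 members in fetal, 8 in hepatectomy and 6 in refed livers. The share of all rows was 9.01%, 18.7% and 10.7%. The members apart in fetal livers included Dnajb11 and not Hyou1, whose fetal fractions overlapped. Every polysome array lay above every total RNA array for 0, 1 and 1 members, against 14.2%, 32.1% and 25.9% of all rows. The median difference of the members was -0.46 in fetal, -0.49 in hepatectomy and -0.43 in refed livers, against 0.04, 0.09 and 0.10 over all rows tested in the same order of models. RMA equalises the arrays, so these are differences relative to the other transcripts of a fraction, and not amounts per ribosome or per cell.

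Hyou1, the exchange factor, had the largest deficit in polysome RNA of the adult livers. In hepatectomy livers it read 11.05, 11.16 and 10.70 in polysome RNA, against 12.06, 12.12 and 12.27 in total RNA. In refed livers it read 10.94, 11.69 and 11.26 in polysome RNA, against 12.06, 12.42 and 12.53 in total RNA. In both models every polysome array lay below every total RNA array. The difference was -1.18 ± 0.147 in hepatectomy livers (adjusted p = 9.01e-05, limma) and -1.04 ± 0.218 in refed livers (adjusted p = 0.00602, limma). In polysome RNA Hyou1 thus stood at 0.441 of its total RNA signal in hepatectomy livers and at 0.485 in refed livers. In fetal livers, given for contrast after the values were seen, Hyou1 read 10.66, 10.34, 9.92 and 9.92 in polysome RNA, against 10.93, 11.03, 10.46 and 10.43 in total RNA. The fetal fractions overlapped and the difference of -0.51 ± 0.231 was not called (adjusted p = 0.155, limma), although it was with the liver as a block (adjusted p = 0.00466).

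Hsp90b1, the Hsp90 of the compartment, was lower in polysome RNA in each model. It read 13.03, 12.99 and 12.61 in polysome RNA of hepatectomy livers, against 13.49, 13.59 and 13.54 in total RNA. In refed livers it read 12.97, 13.28 and 13.07 in polysome RNA, against 13.60, 13.68 and 13.78 in total RNA. The fractions did not overlap in either model. The differences were -0.66 ± 0.097 (adjusted p = 0.000272, limma) in hepatectomy and -0.58 ± 0.112 (adjusted p = 0.00424, limma) in refed livers. In fetal livers the difference was -0.44 (adjusted p = 0.0219, limma), and this call was lost under cyclic loess scaling, where the difference was -0.39.

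Among the members that handle glycoproteins, the membrane-bound lectin chaperone Canx read 12.84, 12.74 and 12.45 in polysome RNA of hepatectomy livers, against 13.18, 13.28 and 13.26 in total RNA. In refed livers it read 12.58, 12.83 and 12.69 in polysome RNA, against 13.08, 13.25 and 13.21 in total RNA. The fractions were separate in both models, with differences of -0.57 ± 0.090 and -0.48 ± 0.095 (adjusted p = 0.000446 and 0.00474, limma). Canx was also lower in fetal polysome RNA, by -0.41 (adjusted p = 0.0265, limma), again a call lost under cyclic loess scaling (-0.37). Calr, its soluble relative, read 13.27, 13.07, 12.94 and 12.88 in fetal polysome RNA, against 13.56, 13.67, 13.39 and 13.46 in fetal total RNA, without overlap. Its differences were -0.48 ± 0.099 in fetal, -0.48 in hepatectomy and -0.44 ± 0.102 in refed livers (adjusted p = 0.00556, 0.000892 and 0.0102, limma). Pdia3, the partner of both, fell by 0.49, 0.50 and 0.43 in the same order (adjusted p = 0.00767, 0.00123 and 0.00722, limma).

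Of the other disulfide isomerases, Pdia4 had its largest difference in fetal livers. It read 11.54, 11.44, 11.43 and 11.20 in fetal polysome RNA, against 12.30, 12.27, 12.20 and 12.29 in fetal total RNA. The lowest total RNA array lay well above the highest polysome array, and the difference was -0.86 ± 0.118 (adjusted p = 0.0004, limma), which put polysome RNA at 0.550 of the total RNA signal. Pdia4 was also lower in hepatectomy polysome RNA, by -0.48 (adjusted p = 0.0017, limma). In refed livers its difference of -0.40 was not called (adjusted p = 0.0814, limma). Pdia6 had called differences of -0.64 in fetal and -0.54 in hepatectomy livers (adjusted p = 0.0128 and 0.00183, limma) and -0.43 in refed livers (adjusted p = 0.0584). Both refed differences were called with the liver as a block (adjusted p = 0.00285 for Pdia4 and 0.00539 for Pdia6). Hspa5 itself had smaller differences, of -0.43 ± 0.082 in fetal, -0.36 in hepatectomy and -0.27 ± 0.086 in refed livers (adjusted p = 0.00339, 0.00709 and 0.0415, limma). In fetal livers BiP read 13.17, 13.17, 13.12 and 13.01 in polysome RNA, against 13.60, 13.55, 13.50 and 13.54 in total RNA.

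Dnajb11 and Sdf2l1, which act together with BiP as a complex, ran the other way from the other members in the adult livers. Theirs was the more common direction over all rows tested. In DMSO livers 42.1% of all rows were lower in polysome RNA in hepatectomy and 41.3% in refed livers. The values of Dnajb11 and Sdf2l1 on single arrays are given because they stood apart from the other members, a choice made after they were seen. Sdf2l1 read 11.84, 11.68 and 11.55 in polysome RNA of hepatectomy livers, against 11.24, 10.87 and 10.89 in total RNA, with no overlap. In refed livers it read 11.14, 12.02 and 11.13 in polysome RNA, against 9.71, 11.12 and 10.18 in total RNA, and the second liver was the highest in both fractions. The difference was 0.69 ± 0.135 in hepatectomy livers (adjusted p = 0.00156, limma), a ratio of 1.61. It was 1.09 ± 0.395 in refed livers, a ratio of 2.13, and not called (adjusted p = 0.0649, limma), but called with the liver as a block (adjusted p = 0.000451). That blocked fit called 42.5% of all rows. Sdf2l1 differed by 0.31 in fetal livers, which was not called (adjusted p = 0.443, limma; 0.239 with the liver as a block).

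Dnajb11 read 12.20, 12.41 and 12.04 in polysome RNA of hepatectomy livers, against 11.92, 12.06 and 11.97 in total RNA. It read 11.52, 12.01 and 12.04 in polysome RNA of refed livers, against 11.15, 11.67 and 11.56 in total RNA. The groups overlapped, and the differences of 0.23 and 0.40 were not called (adjusted p = 0.125 and 0.149, limma), but both were with the liver as a block (adjusted p = 0.0195 and 0.00759). The blocked fit called 61% of all rows in hepatectomy and 42.5% in refed livers. Rows with a mean log2 intensity between 10 and 12, as Dnajb11 has, had median differences of 0.12 and 0.21. In fetal livers Dnajb11 read 10.53, 10.54, 10.54 and 10.18 in polysome RNA, against 10.56, 10.63, 10.79 and 10.79 in total RNA, a difference of -0.25 that was not called (adjusted p = 0.402, limma; 0.181 with the liver as a block). Every fetal polysome array lay below every fetal total RNA array.

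**Figure D3:**
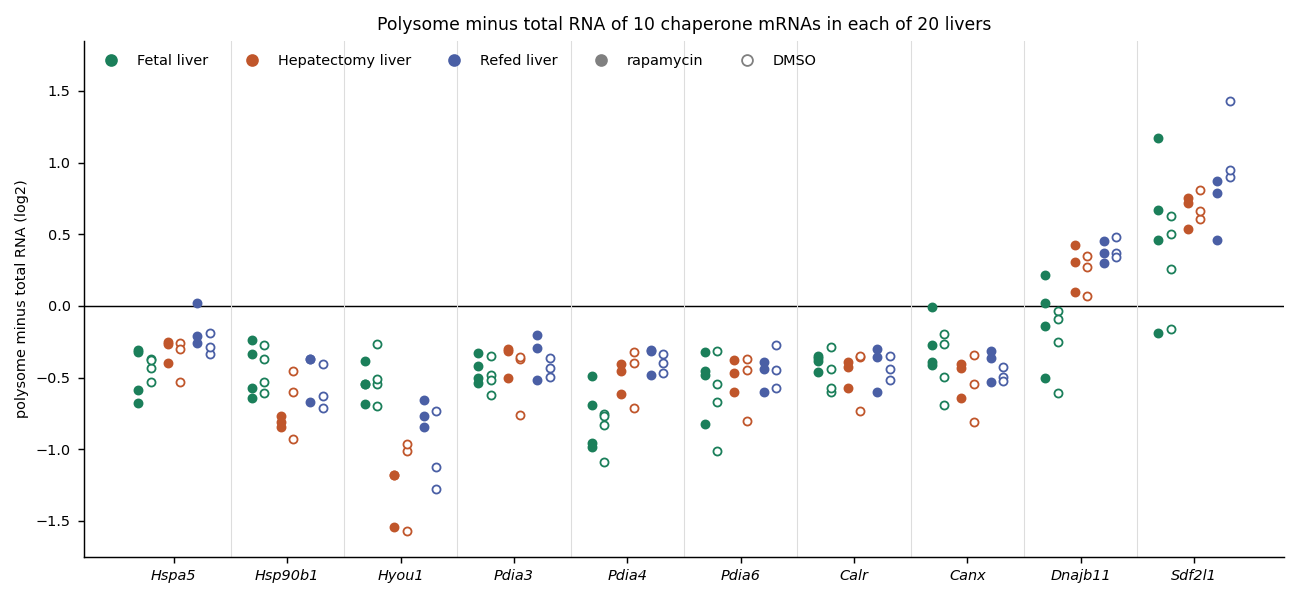
Polysome minus total log2 intensity of each chaperone within each of the 20 livers, grouped by model and treatment; points are livers. Points lie below 0 in 20 of 20 livers for 7 genes, and Dnajb11 and Sdf2l1 lie above 0 in 12 of 12 adult livers. The same count was not made over all rows tested.

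The difference can be read liver by liver, since both fractions of a liver were measured. Over rapamycin-injected and DMSO-injected livers together, 7 members (Hsp90b1, Hyou1, Pdia3, Pdia4, Pdia6, Calr and Canx) were lower in polysome RNA in 20 of 20 livers. Hspa5 was lower in 19, the exception being a refed rapamycin liver at 0.02. Dnajb11 was higher in polysome RNA in 12 of 12 adult livers, by 0.07 to 0.48, and lower in 6 of 8 fetal livers. Sdf2l1 was higher in 12 of 12 adult livers, by 0.46 to 1.43, and in 6 of 8 fetal livers. How many of all rows tested kept 1 sign across livers was not counted. By group means of DMSO livers, 45.1%, 42.1% and 41.3% of all rows were lower in polysome RNA of fetal, hepatectomy and refed livers. Within livers, Hyou1 differed by -0.70 to -0.27 in fetal, -1.57 to -0.96 in hepatectomy and -1.28 to -0.66 in refed livers. Pdia4 differed by -1.09 to -0.49 in fetal livers (median -0.80) and by -0.71 to -0.31 in adult livers (median -0.40), and these ranges overlapped.

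With the liver as a block, the count of called members in DMSO livers was 8 in fetal (8 lower), 10 in hepatectomy (8 lower, 2 higher) and 10 in refed livers (8 lower, 2 higher). Of all rows tested, that fit called 28%, 61% and 42.5% in the same order. In rapamycin-injected livers the count called was 6 in fetal livers, all lower (15.9% of all rows called, 7.15% as lower), and 9 in hepatectomy livers, 8 lower and 1 higher (42.2% called, 14.4% as lower and 27.8% as higher). It was 3 in refed livers, all lower (4.32% called, 1.05% as lower), namely Hsp90b1 at -0.47, Calr at -0.42 and Canx at -0.40 (adjusted p = 0.0433, 0.0452 and 0.0433, limma). Leaving out 1 array of these groups gave 0 or 1 called members, and dropping the filter on dim rows gave 0. With the liver as a block the counts were 7, 10 and 9, and 29.1%, 59.6% and 20% of all rows were called. Hyou1 gave the largest called deficit in rapamycin-injected hepatectomy livers, at -1.30 (adjusted p = 4.23e-05, limma), and Pdia4 in rapamycin-injected fetal livers, at -0.78 (adjusted p = 0.000549, limma).

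Brightness and tissue makeup were measured beside these differences. Among the 189 tested rows with a mean log2 intensity of 13 or more, which hold 4 members, the median polysome minus total difference in DMSO livers was -0.08 in fetal, -0.05 in hepatectomy and 0.06 in refed livers. Among the 505 rows between 12 and 13, which hold 3 members, it was -0.07, 0.07 and 0.23. Among the 2849 rows between 10 and 12, which hold Hyou1, Dnajb11 and Sdf2l1, it was 0.04, 0.12 and 0.21. These ranges of brightness were chosen after the values were seen. Markers of stellate cells were also lower in polysome RNA, in 6 of 7 tested for fetal, 5 of 7 for hepatectomy and 4 of 7 for refed livers, with medians of -0.74, -0.89 and -0.82. Endothelial markers were lower in 3, 4 and 3 of 7 (medians -0.26, -0.48 and -0.36), and macrophage markers in 1, 4 and 1 of 9, with 1 higher in refed livers (medians -0.32, -0.50 and -0.03). Of 10 hepatocyte markers none was called in fetal livers, 4 were called lower in hepatectomy livers, and 3 lower and 1 higher in refed livers, with medians of -0.04, -0.17 and -0.10. The part of these other cells in the chaperone differences was not tested.

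The other genes of the compartment were more mixed. Of 25 other folding enzymes tested, 9 were called lower and 0 higher in polysome RNA of fetal DMSO livers (median -0.42). In hepatectomy livers 6 were lower and 3 higher (median -0.15), and in refed livers 2 were lower and 0 higher (median -0.07). P4hb, the disulfide isomerase that gave the family its name, was called lower in refed livers at -0.27 (adjusted p = 0.0164, limma), and Serpinh1, the collagen chaperone, in hepatectomy livers at -0.80. Of 10 BiP co-chaperones and exchange factors, 4 were lower in fetal livers, 3 lower and 2 higher in hepatectomy livers, and 1 lower and 2 higher in refed livers (medians -0.48, -0.21 and -0.14). Sec63, the J-domain protein at the translocation channel, was called lower in all 3 models, at -0.92, -0.92 and -0.86, and Sdf2, the relative of Sdf2l1, was called higher in hepatectomy (0.61) and refed livers (0.65).

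The translocon and signal peptidase genes held called members in both directions. Of 19, 2 were higher and 6 lower in fetal, 7 higher and 4 lower in hepatectomy, and 6 higher and 2 lower in refed livers (medians -0.29, 0.06 and 0.06). Sec61g and Sec61b, small subunits of the channel, were called higher in refed livers at 1.73 ± 0.223 and 1.07 (adjusted p = 0.000905 and 0.00278, limma), and Srp9, a small protein of the signal recognition particle, at 1.29. Sec61a1, the large channel subunit, was called lower in fetal livers at -0.64. Of 28 genes of N-glycosylation and glycoprotein quality control, 14 were lower and 0 higher in fetal, 12 lower and 4 higher in hepatectomy, and 7 lower and 3 higher in refed livers (medians -0.42, -0.10 and -0.14). The subunits of glucosidase II, which prepares glycoproteins for Calr and Canx, were both among the lower ones in refed livers: Ganab at -1.08 and Prkcsh at -0.71 (adjusted p = 0.0019 and 0.00243, limma). Of 20 genes of degradation from the endoplasmic reticulum, 4 were lower in each model and 2, 6 and 3 higher (medians -0.08, 0.10 and 0.09). Os9, a lectin that hands misfolded glycoproteins to degradation, was called lower in all 3, at -0.78, -1.19 and -1.02. Of 18 sensors and transcription factors of the unfolded protein response, 5 were lower and 1 higher in fetal, 5 lower and 3 higher in hepatectomy, and 2 lower and 2 higher in refed livers (medians -0.08, -0.06 and 0.04). In fetal livers Xbp1 was called lower at -0.60 (adjusted p = 0.00549, limma) and Ddit3, a stress-induced transcription factor, higher at 0.57. In refed livers Atf6 was called lower at -0.60 (adjusted p = 0.0381, limma) and Trib3, a stress-induced pseudokinase, higher at 0.86.

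Rapamycin was compared with DMSO to ask how inhibition of mTOR altered these transcripts. No chaperone was called in any of the 6 comparisons (limma; model by fraction), and most values were slightly lower with rapamycin. The share of all rows called was 0% in both fractions of fetal livers, 6.35% in polysome RNA and 5.01% in total RNA of hepatectomy livers, and 0% in both fractions of refed livers. At an unadjusted p below 0.05, 2 members passed in polysome RNA of hepatectomy livers (25.5% of all rows), and 2 in total RNA of refed livers (16.9%). None did in total RNA of hepatectomy livers (23.6%), polysome RNA of refed livers (4.84%), or polysome and total RNA of fetal livers (2.27% and 1.83%). With the replicate number as a block, since the fetal arrays pair by number, 1 member passed at an unadjusted p below 0.05 in fetal polysome RNA (10.3% of all rows), Hsp90b1 at -0.21. In fetal total RNA 3 passed (9.02% of all rows), namely Hsp90b1 at -0.21, Pdia6 at -0.20 and Sdf2l1 at -0.45. Their adjusted p was 0.422 to 0.523 (limma), so none was called.

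The direction of the values was alike across the comparisons. With rapamycin 8 of 10 members were lower in fetal polysome RNA, 10 in fetal total RNA, 8 in hepatectomy polysome RNA, 10 in hepatectomy total RNA, 10 in refed polysome RNA and 9 in refed total RNA. Over all rows tested the share that was lower was 58.2%, 55.3%, 52.4%, 52.8%, 49.5% and 45.1% in the same order. The medians of the members were -0.07, -0.13, -0.12, -0.14, -0.11 and -0.17, against -0.03, -0.02, -0.01, -0.01, 0.00 and 0.03 over all rows tested. The members with values above 0 were Canx and Dnajb11 (both 0.01) in fetal polysome RNA, Pdia3 (0.08) and Canx (0.02) in hepatectomy polysome RNA, and Sdf2l1 (0.27) in refed total RNA. All rapamycin arrays lay below all DMSO arrays for 5 members in hepatectomy total RNA (17.8% of all rows) and for 4 in refed total RNA (5.11%). They did so for 0 members in hepatectomy polysome RNA (15.6%), refed polysome RNA (9.17%), fetal polysome RNA (1.27%) and fetal total RNA (0.663%).

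**Figure D4:**
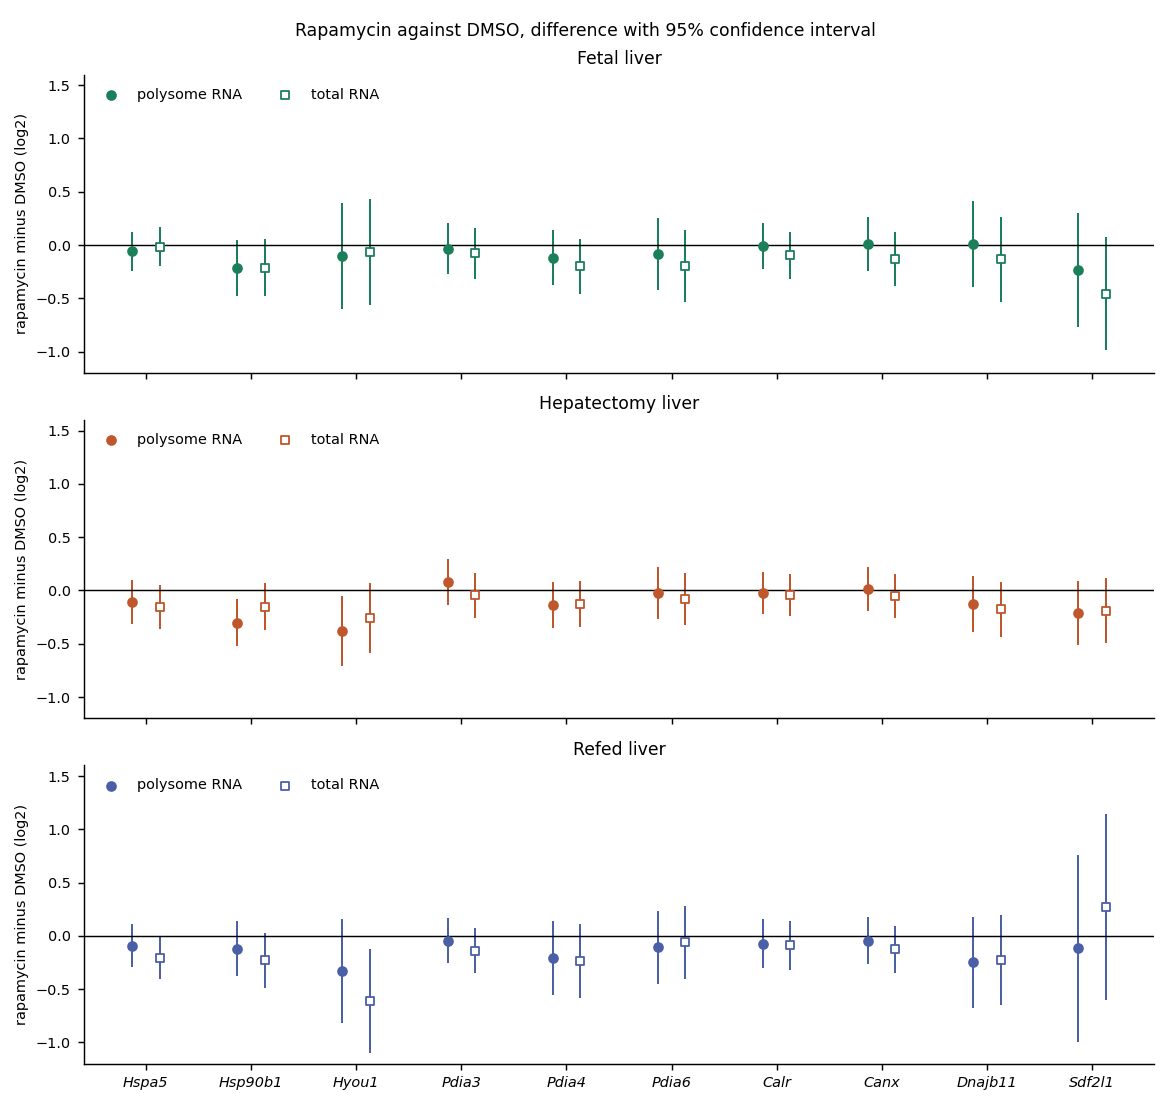
Rapamycin minus DMSO log2 difference of each chaperone in the 6 combinations of model and fraction, as the fitted difference with its 95% confidence interval. Most points lie below 0 and most intervals cover it; those of Hsp90b1 and Hyou1 in hepatectomy polysome RNA and of Hspa5 and Hyou1 in refed total RNA do not.

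Hsp90b1 in polysome RNA of hepatectomy livers gave the smallest adjusted p of a member. It read 12.62, 12.56 and 12.55 in rapamycin livers, against 13.03, 12.99 and 12.61 in DMSO livers. The third DMSO liver lay below the first rapamycin liver, so the groups overlapped. The difference was -0.30 ± 0.097 (adjusted p = 0.0806, limma), with a 95% interval from -0.51 to -0.09. Without that DMSO array 1 member was called. Hyou1 in the same comparison read 10.85, 10.48 and 10.44 in rapamycin livers, against 11.05, 11.16 and 10.70 in DMSO livers, which overlapped, with a difference of -0.38 ± 0.147 (adjusted p = 0.133, limma).

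In total RNA of refed livers Hyou1 read 11.91, 11.83 and 11.43 with rapamycin, against 12.06, 12.42 and 12.53 with DMSO. All rapamycin livers lay below all DMSO livers. The difference was -0.61 ± 0.218 (adjusted p = 0.238, limma), with an interval from -1.09 to -0.14. Hspa5 read 13.85, 13.86 and 13.79 in rapamycin livers, against 14.00, 14.03 and 14.11 in DMSO livers, also without overlap, and differed by -0.21 (adjusted p = 0.264, limma). For BiP in polysome RNA the interval of the rapamycin effect was -0.23 to 0.12 in fetal livers and -0.28 to 0.10 in refed livers.

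Whether rapamycin acted differently on the polysome fraction was tested as the difference of its effects in polysome and total RNA. No member was called in fetal, hepatectomy or refed livers (limma), where 0%, 0% and 0% of all rows were called. None had an unadjusted p below 0.05 either, against 0.414%, 1.45% and 2.45% of all rows. Whether the rapamycin effect differed between the 3 models was tested with a moderated F-test in each fraction. It called no member in polysome RNA (0.0368% of all rows) or total RNA (0.424%), and none had an unadjusted p below 0.05 (5.72% and 15.4% of all rows).

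The rest of the pathway gave few rapamycin calls, all of them in hepatectomy livers. There 1 of 18 sensors and transcription factors was called lower and 1 higher in polysome RNA. Trib3 fell by 1.27 ± 0.220 (adjusted p = 0.0146, limma) and Xbp1, the spliced transcription factor of the response, rose by 0.45 ± 0.105 (adjusted p = 0.0336, limma). Trib3 was also called lower in total RNA, at -0.98 (adjusted p = 0.0321, limma). Of the 25 other folding enzymes, Tmx2, a membrane-bound thioredoxin-related protein, was called lower in polysome RNA at -0.41 and in total RNA at -0.46 (adjusted p = 0.0432 and 0.0331, limma). Erp29, a luminal folding factor, was called lower in total RNA at -0.45 (adjusted p = 0.0489, limma). None of the listed genes was called in fetal or refed livers.

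The models were compared in total RNA of DMSO-injected livers. Fetal livers held less of most chaperones than both adult models, and hepatectomy and refed livers differed in 1 member. The 3 comparisons share their groups. Against hepatectomy livers, 9 members were called lower in fetal livers, where 36.9% of all rows were called, 17% as lower. Against refed livers, 6 members were called lower in fetal livers, where 47.1% of all rows were called, 19% as lower. All fetal livers lay below all hepatectomy livers for 9 members (21.1% of all rows) and below all refed livers for 6 (15%). All hepatectomy livers lay above all refed livers for 3 members (16.4%) and below them for 2 (10.9%). The median of the members was -0.43 against hepatectomy and -0.51 against refed livers, with 0.04 over all rows tested in both. In bulk samples, fewer cells of a type and less RNA per cell cannot be told apart.

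Hyou1 read 10.93, 11.03, 10.46 and 10.43 in fetal livers, against 12.06, 12.12 and 12.27 in hepatectomy livers and 12.06, 12.42 and 12.53 in refed livers. All fetal livers lay more than 1 unit below all adult ones. The difference was -1.44 against hepatectomy livers (adjusted p = 2.81e-06, limma). Against refed livers it was -1.63 ± 0.219 (adjusted p = 2.28e-07, limma), which put fetal livers at 0.324 of the refed signal. Pdia4 read 12.30, 12.27, 12.20 and 12.29 in fetal livers, against 12.95, 13.02 and 13.07 in hepatectomy livers and 12.82, 13.26 and 13.01 in refed livers. It too was lower in every fetal liver, by -0.75 and -0.77 (adjusted p = 1.05e-05 and 5.09e-06, limma).

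Dnajb11 and Sdf2l1 were also lower in fetal livers. Dnajb11 read 10.56, 10.63, 10.79 and 10.79 in fetal livers, against 11.92, 12.06 and 11.97 in hepatectomy livers and 11.15, 11.67 and 11.56 in refed livers. No liver of 1 model overlapped another model. Fetal livers were lower by -1.29 ± 0.176 than hepatectomy livers (adjusted p = 3.91e-07, limma) and by -0.76 than refed livers (adjusted p = 0.00058, limma). Sdf2l1 read 9.63, 9.70, 9.26 and 9.53 in fetal livers, against 11.24, 10.87 and 10.89 in hepatectomy livers and 9.71, 11.12 and 10.18 in refed livers. The lowest refed liver lay just above the highest fetal one. The differences were -1.47 ± 0.291 against hepatectomy livers (adjusted p = 0.000126, limma) and -0.81 against refed livers (adjusted p = 0.0228, limma).

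Hspa5 read 13.60, 13.55, 13.50 and 13.54 in fetal livers, against 13.84, 13.96 and 13.84 in hepatectomy livers and 14.00, 14.03 and 14.11 in refed livers, and differed by -0.34 and -0.50 (adjusted p = 0.00234 and 1.38e-05, limma). Hsp90b1 was lower in fetal livers by -0.37 against hepatectomy livers and -0.51 against refed livers (adjusted p = 0.0126 and 0.000432, limma). Calr, Canx and Pdia6 were called lower in fetal livers against hepatectomy livers, at -0.24, -0.27 and -0.49 (adjusted p = 0.0481, 0.0428 and 0.00765, limma), but not against refed livers, where they differed by -0.11, -0.21 and -0.07. Pdia3 was called in neither, with -0.18 and -0.16 (adjusted p = 0.174 and 0.221, limma). Under cyclic loess scaling the fetal against hepatectomy calls of Calr, Canx and Hsp90b1 were lost (-0.17, -0.20 and -0.29).

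Hepatectomy livers, set against refed livers, had 1 called member, Dnajb11 at 0.53 ± 0.188 (adjusted p = 0.048, limma), where 17.5% of all rows were called, 12.4% as higher. The call was lost under cyclic loess scaling (0.43) and with no filter on dim rows. Pdia6 was higher by 0.42 (adjusted p = 0.0579, limma) and Sdf2l1 by 0.67 (adjusted p = 0.142, limma), and neither was called. The median of the members was 0.04, and -0.10 under cyclic loess scaling, against 0.02 over all rows tested. Leaving out the second refed DMSO liver, which was high for Sdf2l1, gave 3 called members, and leaving out any other array of these groups gave 0.

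**Figure D5:**
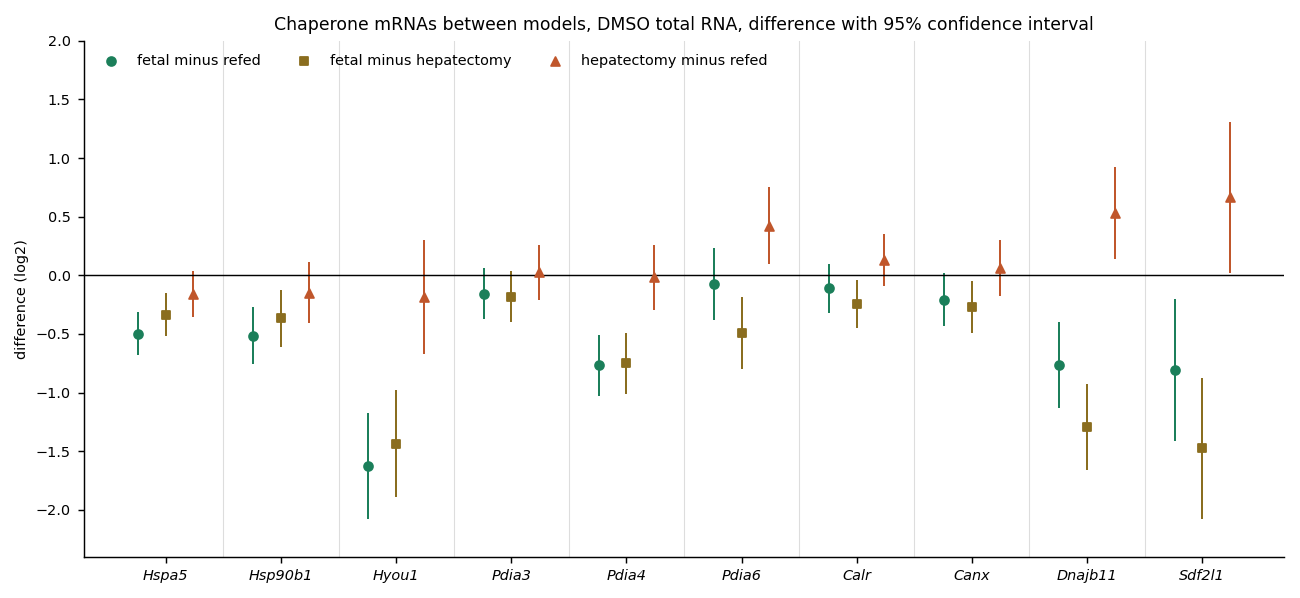
Difference of each chaperone between models in total RNA of DMSO-injected livers (log2), as the fitted difference with its 95% confidence interval, for fetal minus refed, fetal minus hepatectomy and hepatectomy minus refed livers. Both fetal differences lie below 0 with their intervals for Hspa5, Hsp90b1, Hyou1, Pdia4, Dnajb11 and Sdf2l1.

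Markers of other cell types moved with the fetal comparison. Fetal liver is a site of blood formation, and of 10 erythroid markers listed 7 had a tested row, all 7 higher in fetal livers, with medians of 3.72 against hepatectomy and 4.27 against refed livers. Their summed linear intensity was 47349 to 68194 in fetal livers, against 6449 to 9456 in hepatectomy and 6160 to 9459 in refed livers. All 7 tested granulocyte markers were higher too, with sums of 20513 to 23086 in fetal livers, against 528 to 592 in hepatectomy and 459 to 631 in refed livers, and so were all 3 megakaryocyte markers. The 10 adult hepatocyte markers had medians of 0.01 and -0.01, with 1 called higher and 2 lower against hepatectomy livers and 2 higher and 2 lower against refed livers. Their sums were 126770 to 132183 in fetal, 137336 to 140316 in hepatectomy and 134014 to 147636 in refed livers, so the labelled tissue carried its defining markers in all 3 models. The level was not equal: the mean log2 intensity of the 10 was 12.87 to 13.27 in fetal livers. It was 13.63 to 13.64 in hepatectomy and 13.54 to 13.75 in refed livers. The part of blood-forming cells in the chaperone differences was not tested.

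Some co-chaperones of BiP were called lower in fetal livers too. Of the 10 tested, 6 were called lower and 0 higher against hepatectomy livers (median -0.78), among them Dnajc10 at -1.21 and Dnajc3 at -1.01, both J-domain partners of BiP. Against refed livers 4 were lower and 0 higher (median -0.31), among them Dnajc3 at -1.12 (adjusted p = 4.05e-09, limma) and Hspa13, an Hsp70-related protein, at -1.22. Of the 20 degradation genes, 9 were lower and 2 higher against hepatectomy livers (median -0.29) and 8 lower and 1 higher against refed livers (median -0.36). Derl3, a membrane protein of the degradation channel family, gave -3.02 ± 0.463 against hepatectomy livers (adjusted p = 2.94e-06, limma). Of the 18 sensors and transcription factors, 4 were lower and 4 higher against hepatectomy livers and 6 lower and 2 higher against refed livers (medians -0.06 and -0.05), and Atf6 was called lower in both, at -0.62 and -0.93.

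Other folding enzymes were divided in the fetal comparison, with 7 of 25 lower and 4 higher against hepatectomy livers and 3 lower and 7 higher against refed livers (medians -0.11 and 0.30). The cyclophilin Ppic was called higher in both, at 1.38 and 1.96, as was Serpinh1 against refed livers at 1.45. Creld2, a stress-induced isomerase-related protein, was called lower in both, at -1.64 and -1.83. Of 28 glycosylation genes 14 were lower and 1 higher against hepatectomy livers (median -0.35), and 8 lower and 4 higher against refed livers (median -0.12). Of 19 translocon genes 5 were lower and 0 higher against hepatectomy livers (median -0.18), and 1 lower and 4 higher against refed livers (median 0.21). In hepatectomy livers, set against refed livers, these lists held mostly higher calls: 10 higher and 1 lower of the other folding enzymes (median 0.42), 9 higher of the translocon genes (0.36) and 11 higher of the glycosylation genes (0.34), with no lower call in those lists. Dnajc10 was 1 of 3 BiP co-chaperones called higher (median 0.17), at 1.05 (adjusted p = 2.86e-07, limma). Of the sensors and transcription factors 2 were called lower (median -0.03), among them Ddit3 at -0.69, and of the degradation genes 1 was called higher and 1 lower (median -0.01).

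Whether the polysome minus total difference itself differed between models was tested in DMSO livers. Without the liver as a block no member was called, where 2.83% of all rows were called for fetal against hepatectomy, 10.3% for fetal against refed and 0% for hepatectomy against refed. Unadjusted p-values below 0.05 were found for 2, 2 and 0 members (17.2%, 25.7% and 2.51% of all rows). With the liver as a block 3 members were called for fetal against hepatectomy (15.6% of all rows), 4 for fetal against refed (28.3%) and 0 for hepatectomy against refed.

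In that blocked fit Hyou1 had a smaller deficit in fetal polysomes than in adult ones, by 0.68 ± 0.161 against hepatectomy livers and 0.54 ± 0.161 against refed livers (adjusted p = 0.00916 and 0.0179, limma). Pdia4 had a larger one, by -0.38 ± 0.129 and -0.46 ± 0.129 (adjusted p = 0.047 and 0.0122, limma). Dnajb11 differed by -0.48 ± 0.157 and -0.64 ± 0.157 (adjusted p = 0.044 and 0.00591, limma). Sdf2l1 differed by -0.38, which was not called, and by -0.79 ± 0.235 (adjusted p = 0.282 and 0.018, limma). Without the block the adjusted p of these 4 members was 0.247 to 0.715 against hepatectomy livers and 0.0861 to 0.28 against refed livers (limma). Cyclic loess scaling without the block kept the sign of each, at 0.78 and 0.74 for Hyou1, -0.25 and -0.20 for Pdia4, -0.37 and -0.43 for Dnajb11, and -0.29 and -0.62 for Sdf2l1. That scaling turned the sign of the members' median, which was 0.12 against hepatectomy and 0.20 against refed livers, in place of -0.03 and -0.11.

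Genes outside the members were ranked by the correlation of their 12 group means with the mean profile of the chaperones, among 5213 genes whose group means spanned at least 1 log2 unit. The correlation is a description over 12 points that share livers between fractions. The 10 most alike were Hyal1 (0.990), Hspa13 (0.977), Alg12 (0.972), Nucb2 (0.969), Rig1 (0.968), Xpr1 (0.968), Slc33a1 (0.968), Mbtps2 (0.963), Plxna2 (0.962) and Faah (0.962). Among them Hspa13, an Hsp70-related protein, Alg12, a mannosyltransferase of N-glycan assembly, and Mbtps2, the protease that completes the cleavage of ATF6, belong to the lists of endoplasmic reticulum genes described above. How many of the 5213 genes belong to those lists was not counted.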

How the data were processed

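Liver RNA was measured on 40 arrays, with polysome and total RNA of the same replicate number taken as 1 of 20 livers. The deposited values are linear intensities, 1 for each array and transcript cluster, made by the authors with RMA per the submitters' processing notes. Its version and settings, and the annotation build, are not stated in the labels. The 28826 rows ran from 3.77 to 28447 and were log2-transformed here without a pseudocount; the deposited table held no log2 values. Array medians lay at log2 values of 7.09 to 7.40. The number of arrays limits the precision, since an array has no depth. RMA makes the arrays alike in total signal and hides any change shared by a whole fraction. The platform annotation gave 1 symbol to 15209 rows and several to 306, and 13311 were unnamed here; 15178 matched RefSeq (GRCr8) by Entrez number, and 0 symbols changed.

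Tests were two-sided, with limma 3.58.1 in R 4.3.3 (group means, empirical Bayes with an intensity trend), over 10860 named rows whose mean log2 intensity was at or above the 30th percentile, 6.7. Comparisons within a model used its own arrays (8 residual degrees of freedom in adults, 12 in fetuses), and those between models all 40 (28 residual degrees of freedom). P-values were adjusted by Benjamini-Hochberg at 0.05. Labels call the arrays biological replicates, and p-values measure only the spread between these samples. The fit without a block was checked on simulated data only for polysome against total RNA of refed DMSO livers, with independent noise. The checks of the other contrasts and of the blocked fits used nearly noise-free values.

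The members and gene lists were chosen with earlier results of these data known. All members were tested and counted in each comparison, but not all are named in each. Array values are given for up to 4 members with the smallest p. Up to 4 called genes of each list are named, or any sensor or transcription factor. The likeness rule names 10 genes. Values beyond this are marked where they stand.

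Pairing was checked by correlating deviations from group means. Polysome and total arrays of the same number correlated at 0.33 to 0.69 (fetal), 0.51 to 0.72 (hepatectomy) and 0.46 to 0.82 (refed), and were taken as paired. Rapamycin and DMSO arrays of the same number correlated at 0.42 to 0.75 in fetal livers, and were taken as paired there. These are different livers, so the fetal correlation of fractions cannot show whether they share a liver or only a number. Fetal livers of the same number are thus not independent of each other. The alternatives were the replicate block, cyclic loess scaling, no filter, no trend, all 40 arrays, only the groups compared, and leaving out each array. Some promoter sequence is not reported here. Promoters were searched with Python 3.11.15, and figures drawn with matplotlib 3.10.9 and pandas 2.3.3.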

Additional observations from a re-analysis of the deposited data

Results flagged for a closer look

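On the fetal DMSO polysome arrays, the fourth liver had a Dnajb11 value of 10.18, apart from 10.53, 10.54 and 10.54 in the other livers. Its gap to the nearest value was 0.962 of the group's range, above Dixon's critical value for 4 samples at the 95% level. In all, 40 pairs of a member and a fetal group were tested this way, and chance alone marks about 1 in 20.

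The polysome minus total difference differed between models in 7 cases with the liver as a block (limma, adjusted over all rows tested). Fetal against refed livers, Hyou1 differed by 0.54, Pdia4 by -0.46, Dnajb11 by -0.64 and Sdf2l1 by -0.79. Fetal against hepatectomy livers, Hyou1 differed by 0.68, Pdia4 by -0.38 and Dnajb11 by -0.48. None of the 7 was called without the block, where their adjusted p ran from 0.0861 to 0.33.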

How the results depend on the processing

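The values below are counts of called members, out of 10. With the replicate block, where the number is the liver for comparisons of fractions, the count was 10 in place of 6 for polysome against total RNA of refed DMSO livers and 9 in place of 3 for refed rapamycin livers. It was 4 and 3 in place of 0 for the difference of fractions in fetal against refed and fetal against hepatectomy livers. Same-numbered arrays of different models share only a number, and the block gave 2 in place of 1 for hepatectomy against refed livers and 7 in place of 9 for fetal against hepatectomy livers. It left the rapamycin comparisons at 0. The 3 calls in refed rapamycin livers became 0 without the filter on dim rows, 0 without the trend and 6 with all 40 arrays. The 1 call for hepatectomy against refed livers became 0 without the filter and 0 with only the groups compared. Leaving out each array in turn gave 5 to 6, 9 to 9 and 5 to 7 for polysome against total RNA of refed, hepatectomy and fetal DMSO livers, and 0 to 1, 8 to 9 and 4 to 6 for rapamycin livers. It gave 0 to 3 for hepatectomy against refed livers, with 3 without the second refed DMSO total RNA array, 5 to 6 for fetal against refed and 6 to 9 for fetal against hepatectomy livers. The fetal against refed difference of fractions gave 0 to 3, with 3 without that same array and 1 without the first refed DMSO polysome array. Rapamycin against DMSO in hepatectomy polysome RNA gave 0 to 1, with 1 only without the third DMSO array. The other comparisons stayed at 0 when each array was left out. No called value changed sign: 169 of 3350 recomputed values did, the largest of them 0.27 in size, and 0 where either value was called. The 3350 include the F statistics of the tests between the 3 models, which cannot change sign. Averaging several rows of a gene was not run, since each member has 1 row. Except where a value above shows it, the cause was not tested.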
